A study of Mus musculus with 4 samples.

Results

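The epidermal differentiation complex is a cluster of skin barrier genes on mouse chromosome 3, and the genes described here are its members other than the Sprr2 and Lce3 families and the alarmins S100a7a, S100a8 and S100a9. They were chosen by gene symbol from a list of 39 names, and 38 of these had a row in the tables, out of 20611 gene symbols. Of the 38, 36 passed the filter on low counts and were tested. S100a5 and Lelp1 did not pass, and Sprr3 passed through its 16 counts in 1 library alone. Skin of the back was sampled from BALB/c males that were 8 to 9 weeks old. All mice received 5% imiquimod cream, 47 mg once a day on days 1 to 5, and skin was taken on day 6. Imiquimod activates an endosomal Toll-like receptor and is used in mice to provoke a skin inflammation that resembles psoriasis. The IMQ group (n = 1) had the cream alone. The IMQ+VEH group (n = 2) also had a lotion without the compound about 1 h after the cream. The IMQ+IDMF group (n = 1) had the same kind of lotion with isosorbide di-(methyl fumarate), abbreviated IDMF, a pro-drug of dimethyl fumarate whose dose the labels do not give. Nothing here is set against skin that had no imiquimod. Per the study design text the replicates are biological and independent, but whether a library came from 1 mouse or from several is not stated there.

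Keratinocytes that leave the basal layer flatten, fill with keratin and replace their membrane by a cornified envelope, a shell of proteins cross-linked by transglutaminases. Involucrin is laid down early, loricrin is the main component of the finished shell, and small proline-rich proteins (Sprr) bridge the other components. Late cornified envelope proteins (Lce) are added last. The S100 fused-type proteins are long, repeat-rich proteins with S100-like calcium-binding ends, and the small S100 proteins are calcium sensors that bind annexins and other partners. In psoriasis and in wounded skin Sprr genes are known to be induced, and the balance between these families is known to shift.

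Library depth ran from 21167149 to 26639628 counts. The 38 genes took 2.13% of the counts in IMQ, 1.40% and 2.03% in IMQ+VEH replicates 1 and 2, and 1.71% in IMQ+IDMF. The CPM values below (counts relative to library size) are scaled by the trimmed mean of M-values. Keratinocytes were well represented in every library. The 8 basal keratinocyte markers summed to 16289 CPM in IMQ, 9745 and 10309 in IMQ+VEH, and 12152 in IMQ+IDMF. Of these, Krt14 was highest in IMQ (9904, 4539, 4676 and 5333 CPM in the same order). Krt5 was highest in IMQ+IDMF (4556, 3727, 4056 and 4877 CPM). The 10 suprabasal markers, such as Krt1 and Krt10, summed to 56717, 44293, 57303 and 48466.5 CPM. No marker of these lists was at 0, but Krt2 had only 10, 16, 10 and 2 counts. The part of keratinocyte content in the differences below was not tested. Other tissue also differed between libraries. The 9 fibroblast markers summed to 1814 CPM in IMQ, 6654 and 3486 in IMQ+VEH, and 2310.2 in IMQ+IDMF. The 8 adipocyte markers summed to 804 CPM in IMQ, 3768 and 2567 in IMQ+VEH, and 2778 in IMQ+IDMF. The 17 hair follicle markers summed to 93.4, 14.01, 17.9 and 36.1 CPM in the same order. In this bulk tissue, fewer cells of a type and less RNA per cell cannot be told apart.

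Per length of transcript, loricrin (Lor) was the most abundant of the genes, at 1999 FPKM in IMQ, 1523 and 2128 in IMQ+VEH, and 1944 in IMQ+IDMF. FPKM are the authors' values and adjust for transcript length and depth. S100a11, which binds annexins, came next by mean FPKM, at 1482, 1414, 1839 and 1589 in the same order. Lce1a1 (1450, 907, 1647 and 1243 FPKM) and Crct1, a small cysteine-rich envelope gene (1260.2, 792, 1479 and 1009 FPKM), followed. This order of the 4 genes was the same within every library, while the ranges of neighbours overlapped across libraries. The other 13 Lce1 genes had means from 182 FPKM (Lce1k) to 748 FPKM (Lce1b). Sprr1b had a mean of 499 FPKM, Sprr1a of 357, involucrin (Ivl) of 245, repetin (Rptn) of 193 and hornerin (Hrnr) of 127. At the low end, S100a3 had a mean of 1.55 FPKM, cornulin (Crnn) of 1.10, Tchhl1 of 0.304 and Sprr3 of 0.203. Lelp1 had 0, 1, 5 and 0 counts. S100a5, a calcium-binding protein best known from sensory neurons of the nose, had 0 counts in each library, which allows up to 3 counts, or 0.107 to 0.146 CPM, for counting error only. Sprr4 is the shortest transcript of the set, at 231 bases in the GENCODE M21 annotation. Its FPKM (mean 192) corresponds to a length of only 66.4 bases, so its place by FPKM is uncertain.

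**Figure D1:**
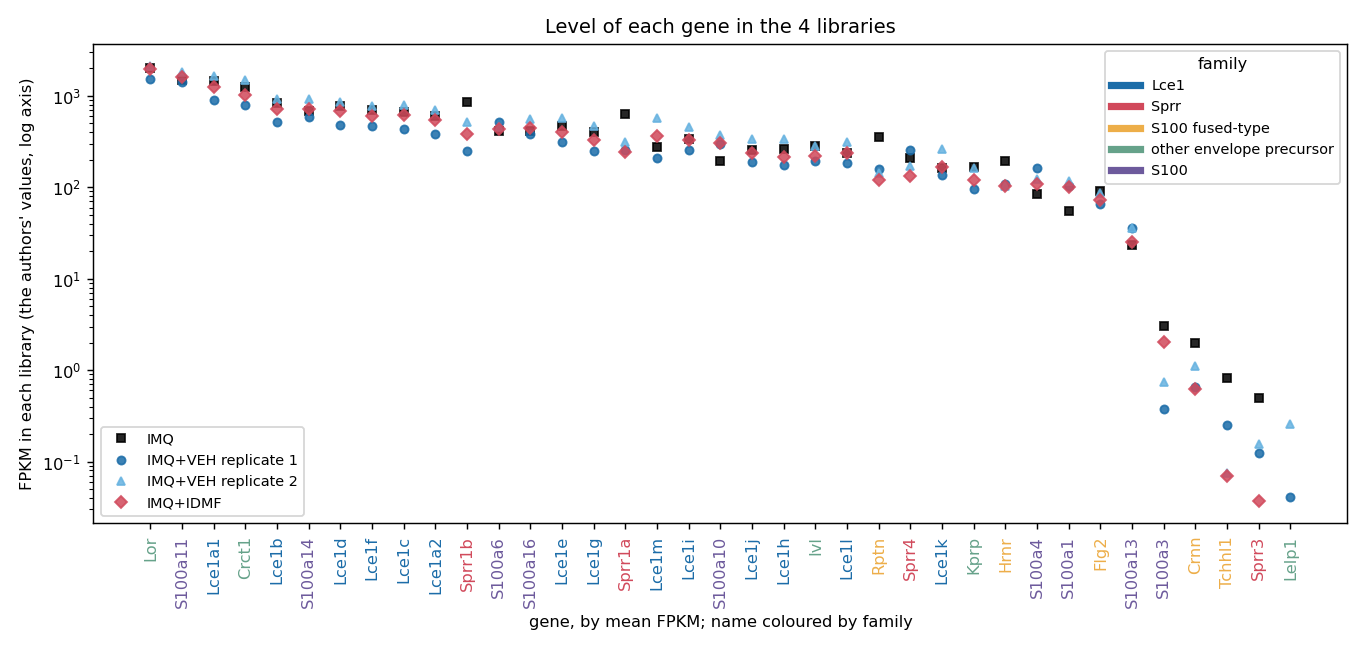
FPKM (log axis) of 37 genes in the 4 libraries, ordered by mean and with names coloured by family; values of 0 are not drawn. Lor leads at 1523 to 2128 FPKM, the 14 Lce1 genes sit in the upper part, and 5 genes (S100a3, Crnn, Tchhl1, Sprr3 and Lelp1) lie far below the rest.

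Adding the plain lotion to imiquimod was examined by setting IMQ+VEH against IMQ. Sprr1a, Sprr1b, repetin, hornerin, cornulin, Tchhl1 and S100a3 had their highest level in IMQ, with each lotion library over 1.5-fold lower. So did Sprr3, which passed the filter only through its IMQ count. By contrast the Lce1 genes and loricrin in IMQ lay between the IMQ+VEH libraries. None of these differences passed the test: edgeR's quasi-likelihood test called 0 of 36 genes at an adjusted p of 0.05, against 0.664% of all 15068 genes tested. Of the 36, 7 had an unadjusted p under 0.05 (19.4%, against 8.81% of all genes). Lower in IMQ+VEH at that level were 5 (13.9%, against 2.55% of all genes), Sprr1a, Sprr1b, Rptn, Tchhl1 and S100a3. Higher were 2 (5.56%, against 6.26%), S100a1 and S100a4. DESeq2 called 2 of the 36, Rptn and Sprr1a, against 1.54% of the 13150 genes it gave an adjusted p. Without the filter on low counts edgeR also called 2, Sprr1a and Sprr1b, against 2.42% of 17527 genes. Spread was measured in the IMQ+VEH pair alone, with 1 residual degree of freedom, and the single libraries are assumed to vary like that pair. With 11.2 prior degrees of freedom, the SE of a gene drew mostly on genes of similar level. It is therefore not the spread of that gene's own pair. Over all genes edgeR called 51 higher and 49 lower, or 120 higher and 31 lower where libraries were scaled to equal keratinocyte markers. That scaling gives equal weight to each basal and suprabasal marker, among them Krt2 with 2 to 16 counts. Dsg1a, Dsc1, Krtdap, Sbsn, Dmkn and Calml3 among them are also envelope or desmosome components. It is therefore not a scaling to keratinocyte content alone.

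Counts of genes below IMQ are given here without Sprr3, which passed the filter only through its IMQ count. By direction, both IMQ+VEH libraries lay below IMQ for 10 of 35 (28.6%, against 35.0% of all genes). They lay above it for 5 of 36 (13.9%, against 33.5%). IMQ was the highest of the 4 libraries for the same 10 (against 30.1% of all genes) and the lowest for the same 5 (against 29.0%). The shares of lower genes were a little below their backgrounds and those of higher genes were further below them. Replicate 1 was over 2-fold below IMQ for 7 of 35 (20%, against 2.95% of all genes) and replicate 2 for 4 (11.4%, against 5.06%). All 3 lotion libraries were over 1.5-fold below IMQ for 7 of 35 (20%), against 3.11% of all genes, and over 1.5-fold above for 1, S100a1, against 6.53%. The median log2 fold change of the 36 was -0.22, beside 0.0025 over all tested genes. That median depended on the IMQ+VEH library: it was 0.16 without replicate 1 and -0.72 without replicate 2. Scaling to equal keratinocyte markers moved the median of all genes to 0.36 and that of the 36 to 0.10, so the 36 lay 0.26 below all genes there and 0.22 below them in the main scaling.

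**Figure D2:**
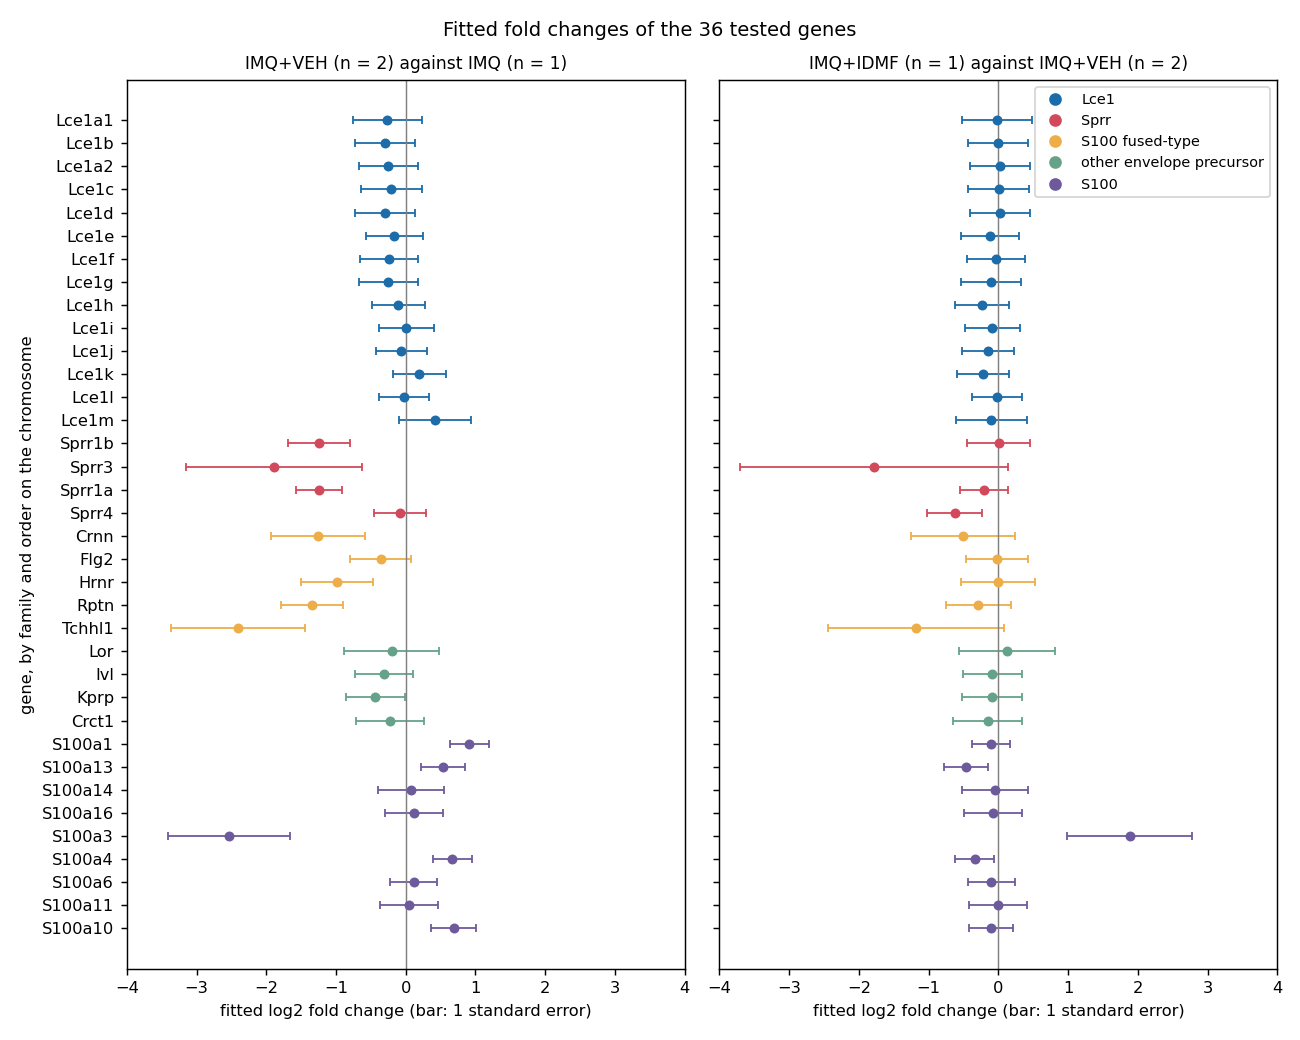
Fitted log2 fold changes of the 36 tested genes with 1 standard error, coloured by family, for IMQ+VEH against IMQ (left) and IMQ+IDMF against IMQ+VEH (right). On the left Sprr1a, Sprr1b, Sprr3, Rptn, Crnn, Tchhl1 and S100a3 lie below -1, and on the right most points lie within 1 standard error of 0. No gene passed the adjusted threshold in either comparison.

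Among the small proline-rich genes, Sprr1a had 531 CPM in IMQ, 192 and 256 in IMQ+VEH, and 195 in IMQ+IDMF. The IMQ library was the high one and the other 3 lay close together. The log2 fold change of IMQ+VEH against IMQ was -1.25 (SE 0.33, adjusted p = 0.166), with adjusted p from 0.017 to 0.182 over the alternatives. Sprr1b had 763 CPM in IMQ, 200.2 and 444 in IMQ+VEH, and 323 in IMQ+IDMF. Its IMQ+VEH libraries were over 2-fold apart, and both lay below IMQ (log2 fold change -1.25, SE 0.44, adjusted p = 0.364, 0.0417 to 0.428 over the alternatives). Sprr3, typical of inner linings such as the oesophagus, had 16 counts in IMQ, 4 and 4 in the IMQ+VEH pair and 1 in IMQ+IDMF (log2 difference -1.89, SE 1.26, adjusted p = 0.805). Sprr4 went another way, with 14.5 CPM in IMQ, 15.97 and 11.5 in IMQ+VEH and 8.90 in IMQ+IDMF (log2 fold change -0.08, SE 0.38). IMQ was not its highest library.

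Repetin, an S100 fused-type protein of the upper epidermis and hair follicle, had 2012 CPM in IMQ, 804 and 782 in IMQ+VEH, and 651 in IMQ+IDMF. The pair was close and the IMQ library was over 2-fold above each of the others. The log2 fold change was -1.34 (SE 0.44, adjusted p = 0.310, 0.00206 to 0.325 over the alternatives). Hornerin, a filament-associated relative, had 2930 CPM in IMQ, 1453 and 1510 in IMQ+VEH, and 1480.1 in IMQ+IDMF (log2 fold change -0.98, SE 0.51, adjusted p = 0.655). Its 3 lotion libraries were almost level, and the fitted fold of IMQ+VEH over IMQ was 0.506. Filaggrin-2 (Flg2) differed less, with 979.9 CPM in IMQ, 627 and 903 in IMQ+VEH and 752 in IMQ+IDMF (log2 fold change -0.36, SE 0.44, adjusted p = 0.974). Cornulin, known from the squamous lining of the oesophagus, had 104 counts in IMQ, 34 and 46 in IMQ+VEH and 27 in IMQ+IDMF (log2 fold change -1.25, SE 0.67, adjusted p = 0.667). Tchhl1, a trichohyalin-like gene, had 56 counts in IMQ, 17 and 4 in IMQ+VEH and 4 in IMQ+IDMF (log2 fold change -2.41, SE 0.96, adjusted p = 0.464). IMQ was the highest library for each of the 5 S100 fused-type genes. Exons of Rptn overlap those of Gm37857 on the same strand. Hrnr and Flg2 are made of repeats. Of the 50-base windows in their longest annotated transcripts, 69.1% and 65.3% occur more than once within the same transcript, so their counts depend on how reads with several positions were handled.

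The sequences just before the starts of 10 genes are printed so that they can be read beside the levels. IMQ was the highest library for Sprr1a, Sprr1b, Rptn, Crnn, Tchhl1, Ivl and Hrnr, and not for Lor, Lce1d and Lce1m. For Ivl this was marginal, with 705 CPM in IMQ and 698 in IMQ+VEH replicate 2. Flg2 and S100a3, also highest in IMQ, are not printed, nor is Sprr3, which passed the filter only through its IMQ count. Sequences are RefSeq's, build GRCm38.p6, and 33 of the 38 genes had a promoter in that table (none was found for Lce1f, Crct1, Kprp, S100a10 and S100a14). Each stretch holds the 150 bases before the start of transcription on the strand of the gene. The stretches lie at chr3:92485882-92486031 (minus strand) for Sprr1a, chr3:92438780-92438929 (minus strand) for Sprr1b and chr3:93393549-93393698 (plus strand) for Rptn. Those of Crnn and Tchhl1 lie at chr3:93144639-93144788 (plus strand) and chr3:93468604-93468753 (plus strand). For Lor and Ivl they are chr3:92083143-92083292 (minus strand) and chr3:92573736-92573885 (minus strand). For Hrnr, Lce1d and Lce1m they are chr3:93319599-93319748 (plus strand), chr3:92687211-92687360 (minus strand) and chr3:93019062-93019211 (minus strand). Capitals mark the letters TGANTCA, the AP-1 motif, and the letters TATAAA, known as the TATA box.
Sprr1a: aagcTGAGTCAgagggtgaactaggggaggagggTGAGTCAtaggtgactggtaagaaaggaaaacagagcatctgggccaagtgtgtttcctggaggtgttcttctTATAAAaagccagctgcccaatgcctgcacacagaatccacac
Sprr1b: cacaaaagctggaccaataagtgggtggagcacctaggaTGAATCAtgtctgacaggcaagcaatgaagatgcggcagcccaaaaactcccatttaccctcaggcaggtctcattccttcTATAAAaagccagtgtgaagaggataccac
Rptn: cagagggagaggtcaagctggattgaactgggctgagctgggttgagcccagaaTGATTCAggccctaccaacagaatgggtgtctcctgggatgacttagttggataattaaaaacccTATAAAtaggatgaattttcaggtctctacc
Crnn: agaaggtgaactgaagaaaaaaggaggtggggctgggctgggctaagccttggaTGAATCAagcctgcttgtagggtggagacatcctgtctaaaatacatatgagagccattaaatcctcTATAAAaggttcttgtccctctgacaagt
Tchhl1: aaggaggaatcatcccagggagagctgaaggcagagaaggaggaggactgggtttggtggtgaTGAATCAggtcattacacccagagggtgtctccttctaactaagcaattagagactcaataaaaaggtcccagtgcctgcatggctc
Lor: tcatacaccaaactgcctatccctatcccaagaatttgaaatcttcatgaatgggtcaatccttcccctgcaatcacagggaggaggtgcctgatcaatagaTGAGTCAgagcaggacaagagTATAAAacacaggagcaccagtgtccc
Ivl: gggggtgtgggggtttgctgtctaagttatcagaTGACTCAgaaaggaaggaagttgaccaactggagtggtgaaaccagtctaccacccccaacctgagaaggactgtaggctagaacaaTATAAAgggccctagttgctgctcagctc
Hrnr: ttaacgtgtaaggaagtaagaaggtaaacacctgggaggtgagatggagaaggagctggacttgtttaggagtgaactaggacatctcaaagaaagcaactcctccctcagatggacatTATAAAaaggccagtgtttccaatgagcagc
Lce1d: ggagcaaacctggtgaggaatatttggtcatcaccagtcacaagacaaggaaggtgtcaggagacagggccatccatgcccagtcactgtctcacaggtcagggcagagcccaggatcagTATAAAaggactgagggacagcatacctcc
Lce1m: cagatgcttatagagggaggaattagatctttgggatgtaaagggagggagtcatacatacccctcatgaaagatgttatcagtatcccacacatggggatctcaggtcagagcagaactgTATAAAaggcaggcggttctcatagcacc

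AP-1 is a family of Fos and Jun dimers that respond to stress and growth signals and act in keratinocyte differentiation. TGANTCA reads the same on both strands and did not overlap TATAAA. Within 250 bases before to 50 bases after the start, it was found in 10 of 33 genes, and in 7.81% of all 32851 promoters of the same length. The 33 genes had 37 promoters, and a gene counted if any of its promoters held the letters. Shares over all are per promoter, so the units differ, here and for TATAAA below. The 10 were Sprr1a, Sprr1b, Rptn, Crnn, Tchhl1, Flg2, Lor, Ivl, S100a11 and S100a16. Sprr1a held the motif at 146 and 116 bases before the start, Sprr1b at 111, Ivl at 116, Rptn and Crnn at 96, Tchhl1 at 87, and Lor at 48. TATAAA, searched on both strands, was found in 12 of 33 genes and in 13.6% of all promoters. It lay 27 to 33 bases before the start in Lor, Sprr1b, Ivl, Rptn, Crnn, Hrnr, Lce1d, Lce1m, Sprr3 and S100a4, 43 in Sprr1a and 52 in S100a3. No Lce1 window held TGANTCA. The 10 genes with the motif had log2 fold changes of IMQ+VEH against IMQ from -2.41 (Tchhl1) to 0.11 (S100a16), with a median of -0.80. The 21 tested genes without it ran from -2.53 to 0.91, with a median of -0.11. Both groups thus held genes with large and with small differences. The 21 hold every Lce1 gene except Lce1f, and the Lce1 genes had a median of -0.18. Gene family and motif therefore cannot be told apart in these medians. Hrnr and S100a3 were highest in IMQ without these letters, and Lor, S100a11 and S100a16 held them without being highest there. Sprr3, among the 21, is set aside here because it passed the filter only through its IMQ count. A match of letters is a description, not a shown site.

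Loricrin had 4576 CPM in IMQ, 3154 and 4806 in IMQ+VEH, and 4322 in IMQ+IDMF. The IMQ library fell within the IMQ+VEH pair (log2 fold change -0.20, SE 0.69, adjusted p = 0.996). Involucrin had 705 CPM in IMQ, 436 and 698 in IMQ+VEH, and 533 in IMQ+IDMF (log2 fold change -0.31, SE 0.42, adjusted p = 0.976). Here replicate 2 was close to IMQ and replicate 1 was the low one. Crct1 had 937 CPM in IMQ, 527 and 1069.6 in IMQ+VEH and 717 in IMQ+IDMF (log2 fold change -0.23, SE 0.49). Kprp, a keratinocyte proline-rich protein, had 601 CPM in IMQ, 313 and 577 in IMQ+VEH and 418 in IMQ+IDMF (log2 fold change -0.43, SE 0.42). The direction of the Lor, Ivl and Crct1 values turned with scaling to keratinocyte markers (0.14, 0.020 and 0.09). Ratios within a library need no scaling between libraries. Per 1000 counts of Lor, there were 439.6 of Rptn in IMQ, 255 and 163 in IMQ+VEH, and 150.5 in IMQ+IDMF. For Sprr1a these were 116 in IMQ, 60.9 and 53.3 in IMQ+VEH and 45.1 in IMQ+IDMF, so that IMQ again stood apart. For Ivl they were 154, 138, 145 and 123 in the same order, a narrow range.

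The 14 Lce1 genes lie together on chromosome 3 from 92646535 to 93019060 (GRCm38), and all but Lce1c are on the minus strand in the GENCODE M21 annotation. Their summed level was 5529.9 CPM in IMQ, 3262 and 6586 in IMQ+VEH, and 4762 in IMQ+IDMF. IMQ+VEH replicate 1 was the lowest and replicate 2 the highest library for each of the 14. Over the 36 genes replicate 1 was lowest for 26 (72.2%, against 27.8% of all genes) and replicate 2 highest for 22 (61.1%, against 21.7%). Lce1a1 had 1059 CPM in IMQ, 593 and 1169.8 in IMQ+VEH, and 868 in IMQ+IDMF (log2 fold change against IMQ -0.26, SE 0.49, adjusted p = 0.987). The difference within the IMQ+VEH pair ran from 0.86 (Lce1f) to 1.57 (Lce1m) in log2 CPM, with a median of 0.99, beside -0.03 over all tested genes. Differences between IMQ and the mean of the pair were smaller, from -0.30 (Lce1d) to 0.42 (Lce1m). With scaling to equal keratinocyte markers 11 of the 14 changed sign, and all 14 then lay above IMQ, from 0.026 to 0.72. Lce1m had 278 CPM in IMQ, 188 and 558 in IMQ+VEH, and 347 in IMQ+IDMF (log2 fold change 0.42, SE 0.52, adjusted p = 0.974). In 13 of the 14 genes, 9.12% to 27.1% of the 50-base windows of the transcript also occur in another gene, in most cases another Lce1 gene. Lce1m shares none. Reads may therefore have been assigned among the 13, and the sum over the family is less open to this than any single gene.

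**Figure D3:**
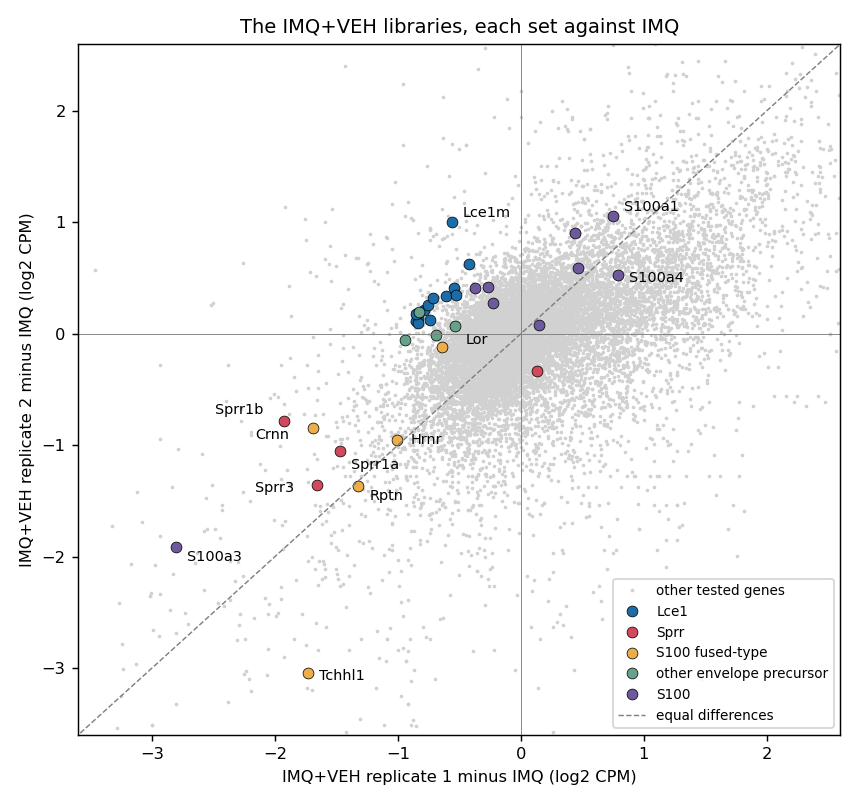
Log2 CPM difference from IMQ of IMQ+VEH replicate 1 (horizontal) and replicate 2 (vertical) for the 36 genes, coloured by family, over all tested genes in grey; genes beyond the axes are not shown. The Lce1 genes lie above the line of equal differences, left of 0 and above 0, while Rptn, Hrnr and Sprr1a lie near the line at about -1.0 to -1.5.

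The spread within the IMQ+VEH pair was shared by most of the 36 genes. Replicate 2 was above replicate 1 for 31 of 36 (86.1%), against 47.0% of all genes. It was over 2-fold above for 8 (22.2%), against 1.92%, and the pair was over 1.5-fold apart for 24 (66.7%), against 24.6%. Rptn (-0.04), Hrnr (0.05) and S100a6 (-0.07) were the genes nearest to 0 in this difference, and Sprr4 (-0.47), S100a4 (-0.27) and Tchhl1 (-1.31) were lower in replicate 2. Fibroblast markers moved the other way, with 9 of 9 tested members lower in replicate 2 (differences of -1.64 to -0.26, median -0.96). Endothelial markers had a median of -1.09 and adipocyte markers one of -0.64. The part of these in the spread was not tested. Suprabasal keratinocyte markers were higher in replicate 2 (median 0.42) and basal ones little different (median 0.08).

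Along the chromosome, the difference of the Lce1 genes from IMQ was graded. From Lce1a1 to Lce1g, the first 8 genes, replicate 1 was 0.74 to 0.85 below IMQ in log2 CPM and replicate 2 was 0.10 to 0.26 above it. From Lce1i to Lce1m, the last 5, replicate 1 was 0.42 to 0.61 below and replicate 2 was 0.33 to 1.00 above. The order of the 14 genes went with the difference from IMQ at a Spearman rho of 0.80 for replicate 1, 0.84 for replicate 2 and 0.60 for IMQ+IDMF. Without Lce1m, which lies apart from the rest, these were 0.79, 0.80 and 0.50 over 13 genes. The 3 values share the IMQ library, and the genes share sequence. Level also went with order, since mean FPKM was lower towards the end of the row (rho -0.86), so position and level cannot be told apart. The difference within the IMQ+VEH pair, which does not involve IMQ, had a rho of 0.16.

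**Figure D4:**
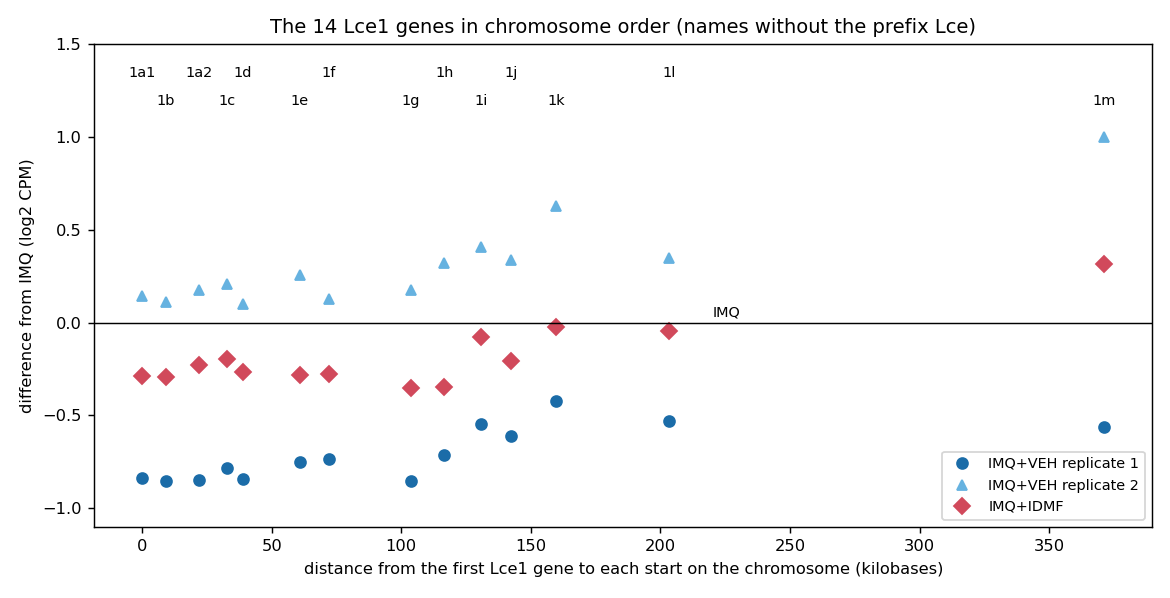
Log2 CPM difference from IMQ of the 14 Lce1 genes against their distance along the chromosome in kilobases, for the 3 lotion libraries; the line at 0 is IMQ. In each library the later genes sit higher than the first ones, from -0.84 at Lce1a1 to -0.56 at Lce1m in IMQ+VEH replicate 1 and from 0.14 to 1.00 in replicate 2.

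The small S100 genes took another course. S100a1, abundant in heart and skeletal muscle, had 32.4 CPM in IMQ, 54.7 and 67.4 in IMQ+VEH, and 56.9 in IMQ+IDMF. The IMQ library was the low one (log2 fold change 0.91, SE 0.28, adjusted p = 0.272). S100a4, known from fibroblasts and leukocytes, had 35.7 CPM in IMQ, 61.9 and 51.5 in IMQ+VEH and 44.8 in IMQ+IDMF (log2 fold change 0.67, SE 0.28, adjusted p = 0.497). S100a10, the partner of annexin A2, had 126 CPM in IMQ, 171 and 235 in IMQ+VEH and 189 in IMQ+IDMF (log2 fold change 0.69, SE 0.32, adjusted p = 0.578). S100a13, linked to export of growth factors, had 17.2 CPM in IMQ, 23.8 and 25.9 in IMQ+VEH and 18.0 in IMQ+IDMF (log2 fold change 0.53, SE 0.32, adjusted p = 0.739). S100a6, a calcium sensor of proliferating cells and fibroblasts, ranged only from 309.7 to 343 CPM (log2 fold change 0.11, SE 0.34). For these 5 genes IMQ was the lowest of the 4 libraries. Markers of fibroblasts, adipocytes and skeletal muscle were also lowest in IMQ as summed levels, and muscle markers ran from 14073 CPM in IMQ to 26985 in IMQ+VEH replicate 1. Of the 9 fibroblast markers, 7 were above IMQ in both IMQ+VEH libraries, and Col3a1, Fbn1 and Mfap5 were lower in IMQ+IDMF than in IMQ. Summed leukocyte markers were not lowest in IMQ: monocyte and macrophage markers had 526 CPM there and 265 in IMQ+IDMF, T cell markers 11.9 and 6.04. The part of these cell types in the S100 differences was not tested. None of the 9 fibroblast or 10 muscle markers was at 0 in any library. The epithelial genes S100a11, S100a14 and S100a16 lay on both sides of IMQ in the pair, with log2 fold changes of 0.04, 0.07 and 0.11 (SE 0.42, 0.47 and 0.42).

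S100a3, a protein of the hair cuticle, had 57 counts in IMQ, 7 and 11 in IMQ+VEH and 32 in IMQ+IDMF. It was the only one of the 9 tested small S100 genes below IMQ in both IMQ+VEH libraries (log2 fold change -2.53, SE 0.87, adjusted p = 0.348). The summed hair follicle markers were in the same order over the libraries, as given above, and 8 of the 17, all hair shaft keratins, were at 0 in at least 1 library. Among those tested, 4 of 11 passed the threshold lower in IMQ+VEH than in IMQ, against 0.325% of all tested genes: Krt25, Krt71, Krt35 and Tchh. Krt86, also among the 11, passed the filter only through its 12 counts in IMQ and was not called. The part of hair follicle content in the S100a3 values was not tested. Of the 50-base windows of S100a3, 3.59% also occur in other genes, most often Gm42674. Exons of S100a3 overlap Gm42674 on the same strand and Gm23464 on the opposite strand. For S100a4, 47.4% of the windows are shared with Gm42674, which also overlaps its exons on the same strand. For S100a11, 41.1% are shared with Gm12854.

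Elsewhere in the complex and its pathway, 0.325% of all tested genes were called lower in IMQ+VEH than in IMQ. EdgeR called lower all 6 Lce3 genes and 6 of 8 tested Sprr2 genes, with medians of -2.40 and -2.39, and S100a7a of the 3 alarmins. Sprr2k, among the called Sprr2 genes, passed the filter only through its 448 counts in IMQ. It had 9 and 7 in IMQ+VEH and 6 in IMQ+IDMF. Among other neighbours, trichohyalin (Tchh; log2 fold change -2.77, SE 0.40, adjusted p = 0.00695) and Prr9 (-2.69, SE 0.53, adjusted p = 0.0452) were called lower, 2 of 5 tested. Of 17 genes for cross-linking and processing of envelope proteins, 1 was called lower and 0 higher. This was Klk14, a protease of shedding (-1.67, SE 0.33, adjusted p = 0.0414). The list's median was -0.52. None of 14 other envelope and desmosome components was called (median -0.47, 1 with an unadjusted p under 0.05), and the most abundant, Dmkn, Krtdap and Sbsn, had -0.36, -0.20 and -0.36. None of 25 regulators of epidermal differentiation was called (median -0.33, 3 with an unadjusted p under 0.05). Cebpa, Klf4 and Trp63 had -0.11, -0.32 and -0.32. The AP-1 subunit genes on that list, chosen after their values were seen, were Junb (-0.49, SE 0.29), Fosl2 (-0.61, SE 0.28) and Fosl1, with 6 counts in IMQ, 5 and 37 in IMQ+VEH and 24 in IMQ+IDMF. Of 6 partner proteins of S100, 0 were called (median 0.38). There were 2 with an unadjusted p under 0.05, both higher in IMQ+VEH: Anxa6 (0.76, SE 0.31) and Anxa11 (0.67, SE 0.27). The most abundant, Ahnak, Anxa1 and Anxa2, had -0.0086, 0.05 and 0.10. The difference between these lists and the 36 genes was not tested.

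The effect of the compound within the lotion was examined by setting IMQ+IDMF against IMQ+VEH. For 27 of the 36 genes (75.0%, against 44.7% of all genes) IMQ+IDMF lay between the IMQ+VEH libraries, among them all 14 Lce1 genes, Lor, Ivl, Crct1, Kprp, Sprr1a, Sprr1b, Flg2 and Hrnr. It lay below both for 8 (22.2%, against 27.5% of all genes) and above both for 1, S100a3 (2.78%, against 27.7%). EdgeR called 0 of 36 genes, against 0.0% of all genes, and DESeq2 also called 0. None had an unadjusted p under 0.05, against 2.03% of all genes (0.484% higher and 1.55% lower). The median log2 fold change was -0.10, beside -0.0083 over all tested genes. It was -0.40 against replicate 2 alone and 0.40 against replicate 1 alone. The absence of calls is no evidence of equal levels.

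Sprr4 was the lowest in IMQ+IDMF among the well-measured genes, with 199 counts, while the IMQ+VEH pair had 448 and 236 (fitted log2 difference -0.63, SE 0.39). Rptn had -0.29 (SE 0.46), S100a13 -0.46 (SE 0.32) and S100a4 -0.34 (SE 0.28), each below both IMQ+VEH libraries. Sprr3, Tchhl1 and Crnn, with 1, 4 and 27 counts in IMQ+IDMF, had -1.78 (SE 1.92), -1.18 (SE 1.26) and -0.50 (SE 0.74). S100a3 stood alone on the other side, with 32 counts against 7 and 11 (log2 fold change 1.88, SE 0.90). Summed hair follicle markers were also higher in IMQ+IDMF than in the IMQ+VEH pair, and their part was not tested. Lor (0.12, SE 0.69), Ivl (-0.09, SE 0.42), Sprr1a (-0.20, SE 0.35) and Lce1a1 (-0.02, SE 0.50) differed by less than 1 standard error, and the lowest of the Lce1 genes was Lce1h (-0.24, SE 0.39). The adjusted p by edgeR in this comparison was 1 for each of the 36 genes. Monocyte and macrophage markers were lower in IMQ+IDMF (265 CPM summed, against 699.8 and 401), as were fibroblast markers.

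Setting IMQ+IDMF against IMQ compares single libraries, which gives sizes and no test, and it shares those libraries with both comparisons above. With Sprr3 again set aside, IMQ+IDMF was over 2-fold below IMQ for 5 of 35 genes (14.3%, against 4.51% of all genes): Sprr1a (-1.45), Sprr1b (-1.24), Rptn (-1.63), Tchhl1 (-3.13) and Crnn (-1.70) in log2 CPM. It was over 2-fold above IMQ for 0, against 6.78%. Hrnr followed at -0.98. The Lce1 genes had -0.35 (Lce1g) to 0.32 (Lce1m) with a median of -0.25, and Lor -0.08. Of the small S100 genes, S100a1 (0.81) and S100a10 (0.59) were higher in IMQ+IDMF, and S100a14 (0.02), S100a6 (0.01) and S100a11 (0.03) were level. The median over the 36 was -0.28, or 0.10 where libraries were scaled to equal keratinocyte markers.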

How the data were processed

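For each of the 4 libraries the authors deposited 1 table with a raw count and an FPKM value per gene symbol, per the file headers. Sequencing was single-end with 50 cycles, per the labels' protocols. TopHat2, HTSeq and Cufflinks, with GRCm38 (mm10), are named in the submitters' processing notes. Not given in the sources used here were versions, annotation, strand setting and the treatment of reads with several positions. Counts were filtered with filterByExpr, scaled by TMM and tested two-sided in edgeR 4.0.16 (R 4.3.3) by quasi-likelihood, with 1 mean per group, 15068 genes, Benjamini-Hochberg adjustment and a threshold of 0.05. The fit had 1 residual and 11.2 prior degrees of freedom. A standard error (SE) is the size of a log2 fold change over the root of its F value. Log2 CPM used a prior count of 2. DESeq2 1.42.0, other scalings, filters and left-out libraries were alternatives. On simulated counts the fit was tested and recovered known log2 changes of 2 and 4, set in genes averaging 50 counts or more. Smaller changes, such as most of those above, were not simulated. Positions, exon overlap and 50-base windows came from GENCODE M21 (GRCm38). Promoters came from RefSeq. Genes and lists were chosen with earlier results of these data known. All listed genes could be named, and of other lists those called, otherwise the 3 most abundant.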

Additional observations from a re-analysis of the deposited data

How the results depend on the processing

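No paired analysis was possible because only IMQ+VEH has more than 1 replicate. For IMQ+VEH against IMQ, edgeR called 0 of the 36 genes with other size factors, total counts, robust estimation, only genes averaging 50 counts or more, scaling to keratinocyte markers and without IMQ+IDMF. It called 2 without a filter, and DESeq2 called 2. Over all genes it called 100, against 424 without a filter, 151 with scaling to keratinocyte markers and 202 with DESeq2. For IMQ+IDMF against IMQ+VEH the count over all genes was 0, or 16 without a filter. Scaling to keratinocyte markers turned the direction against IMQ of 15 of the 36 genes, 11 of them Lce1 genes, and that of IMQ+IDMF against IMQ+VEH of 8. Among those given above with a fold change against IMQ were Lce1a1 (0.056), Lce1d (0.026), Sprr4 (0.30), Lor (0.14), Ivl (0.020) and Crct1 (0.088). For Lce1a1 in IMQ+IDMF against IMQ+VEH, total counts gave 0.0063 and scaling to keratinocyte markers 0.042. Leaving out each IMQ+VEH library in turn, the median over the genes ran from -0.72 to 0.16 against IMQ and from -0.40 to 0.40 for IMQ+IDMF. A library of the pair left out leaves no residual degree of freedom, so those are values with no test. Depth limits Sprr3, Tchhl1, Crnn, S100a3, Lelp1 and S100a5. Intervals and floors cover counting error only.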
